A study of Mus musculus with 49 samples.

Results

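Described here are 34 genes known for the identity of microglia, the resident immune cells of the brain, and for the signals these cells exchange with their surroundings. They were chosen by name: a row of the deposited expression table was taken where its identifier named a listed gene, and for a gene on several rows the row with the highest mean was used. All 34 were found among the 42521 rows of the table. All 34 also passed the filter for testing, a mean of at least 0.5 FPKM (fragments scaled to transcript length and to the library's total), which 16029 rows passed. By role there were 3 ligands, 8 receptors, 6 genes of TREM2 and related immune receptor signalling, 4 adhesion genes, 4 transcription factors and 9 further markers.

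RNA was sequenced from the hippocampus of 49 C57BLKS/J mice, all 3 months old. The 6 groups were HFD-F, CD-F, FFD-C, HFD-C, FD-C and CD-C, with 9 libraries in HFD-C and 8 in each of the others, and 4 libraries of each group carried an XX mark in the title. No label explains the codes. From the series title, on maternal obesity, offspring and fibre, the first element was taken to be the dam's diet and the second that of her offspring, so that HFD-F and HFD-C, or CD-F and CD-C, differ in the offspring code. The labels do not say whether mice shared a litter. If some did, p-values over mice are too small. Columns summed to between 1220340 and 1340551 FPKM. The absolute depth is unknown, and depths relative to one another, read from the spacing of low values in 396 rows, lay between 0.896 and 1.06.

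Microglia live under the survival signal of CSF1 and IL-34, both of which bind the receptor CSF1R. Neurons signal to them through the membrane-bound chemokine CX3CL1 and its receptor CX3CR1, and extracellular nucleotides through P2Y receptors. The factors PU.1 (Spi1), IRF8, SALL1 and MEF2C establish and hold the microglial state, and TREM2 with its adaptor TYROBP senses lipids and debris.

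Markers of resident microglia were read first. None of Cx3cr1, P2ry12, Tmem119, Csf1r, Siglech, Gpr34, Fcrls, Olfml3 and Sall1 was at 0 in any library. The lowest values were 0.619 FPKM for Siglech and 658 FPKM for Csf1r. Such values cannot check the label, because these genes had already passed the filter on the mean. The endothelial gene Cdh5 and the border macrophage gene Mrc1 were also above 0 in every library. Cst3, which encodes the protease inhibitor cystatin C and is also made by astrocytes, had the highest mean level per length (878 FPKM), closely followed by Csf1r (870 FPKM). Their ranges over the 49 libraries overlapped, at 632 to 1961 FPKM for Cst3 and 658 to 1171 FPKM for Csf1r. Next came the engulfment receptor gene Mertk at 65.6 to 206 FPKM, below every Csf1r value. The lowest means were those of Tyrobp (0.968 FPKM), Ptprc, the gene of the leukocyte phosphatase CD45 (0.865 FPKM), and P2ry6, a UDP receptor gene (0.632 FPKM). In whole tissue, fewer microglia and less RNA per microglial cell cannot be told apart.

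Promoter sequences were taken from RefSeq (GRCm38.p6) as 300 bases around a start given for the gene, and 25 of the 34 genes had one in the table used. They were searched on both strands for AGGAAG, the core bound by PU.1 and other ETS factors, for the longer PU.1 word GAGGAAGT, which contains that core, and for the composite element of PU.1 and IRF8. The core was found for 17 of 25 genes (68%), against 38.4% of all symbols with a promoter and 35.4% of all 32851 promoters. GAGGAAGT was found for Cd53 and Inpp5d, and in 3.2% of all promoters. The composite element was found for 0 of 25 genes and for 3.16% of symbols. The promoters below are those of both genes with the longer word, and of Itgam and Laptm5, which hold 2 cores each, 1 on each strand, and whose levels are described further on. Capitals mark the matches, in either orientation.
Inpp5d, chr1:87620062-87620361, plus strand: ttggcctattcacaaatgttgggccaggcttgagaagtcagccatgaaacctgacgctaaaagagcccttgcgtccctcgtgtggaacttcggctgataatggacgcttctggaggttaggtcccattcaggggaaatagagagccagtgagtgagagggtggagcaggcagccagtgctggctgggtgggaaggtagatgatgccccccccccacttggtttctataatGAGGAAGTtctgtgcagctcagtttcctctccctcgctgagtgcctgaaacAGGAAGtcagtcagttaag
Cd53, chr3:106790100-106790399, minus strand: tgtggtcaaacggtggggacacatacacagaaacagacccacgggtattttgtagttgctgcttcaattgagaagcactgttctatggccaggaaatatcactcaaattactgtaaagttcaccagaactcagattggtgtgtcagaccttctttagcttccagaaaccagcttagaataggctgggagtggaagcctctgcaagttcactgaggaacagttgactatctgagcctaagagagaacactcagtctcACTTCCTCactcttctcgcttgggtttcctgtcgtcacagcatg
Itgam, chr7:128062390-128062689, plus strand: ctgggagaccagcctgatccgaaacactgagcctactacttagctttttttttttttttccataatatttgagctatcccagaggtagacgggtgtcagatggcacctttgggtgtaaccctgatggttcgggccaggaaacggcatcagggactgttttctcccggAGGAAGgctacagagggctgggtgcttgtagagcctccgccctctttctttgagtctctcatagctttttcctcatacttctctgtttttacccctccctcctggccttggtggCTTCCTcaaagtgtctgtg
Laptm5, chr4:130913066-130913365, plus strand: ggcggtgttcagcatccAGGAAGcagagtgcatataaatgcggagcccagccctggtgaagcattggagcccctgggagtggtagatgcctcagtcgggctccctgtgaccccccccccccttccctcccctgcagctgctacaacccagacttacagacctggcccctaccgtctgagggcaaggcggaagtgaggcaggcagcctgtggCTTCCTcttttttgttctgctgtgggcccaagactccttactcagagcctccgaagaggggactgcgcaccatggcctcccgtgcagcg
The Laptm5 sequence lies wholly downstream of the outermost gene start, listed at chr4:130912890, and so is not around that start. A match is a word in a sequence, and no binding was measured.

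**Figure D1:**
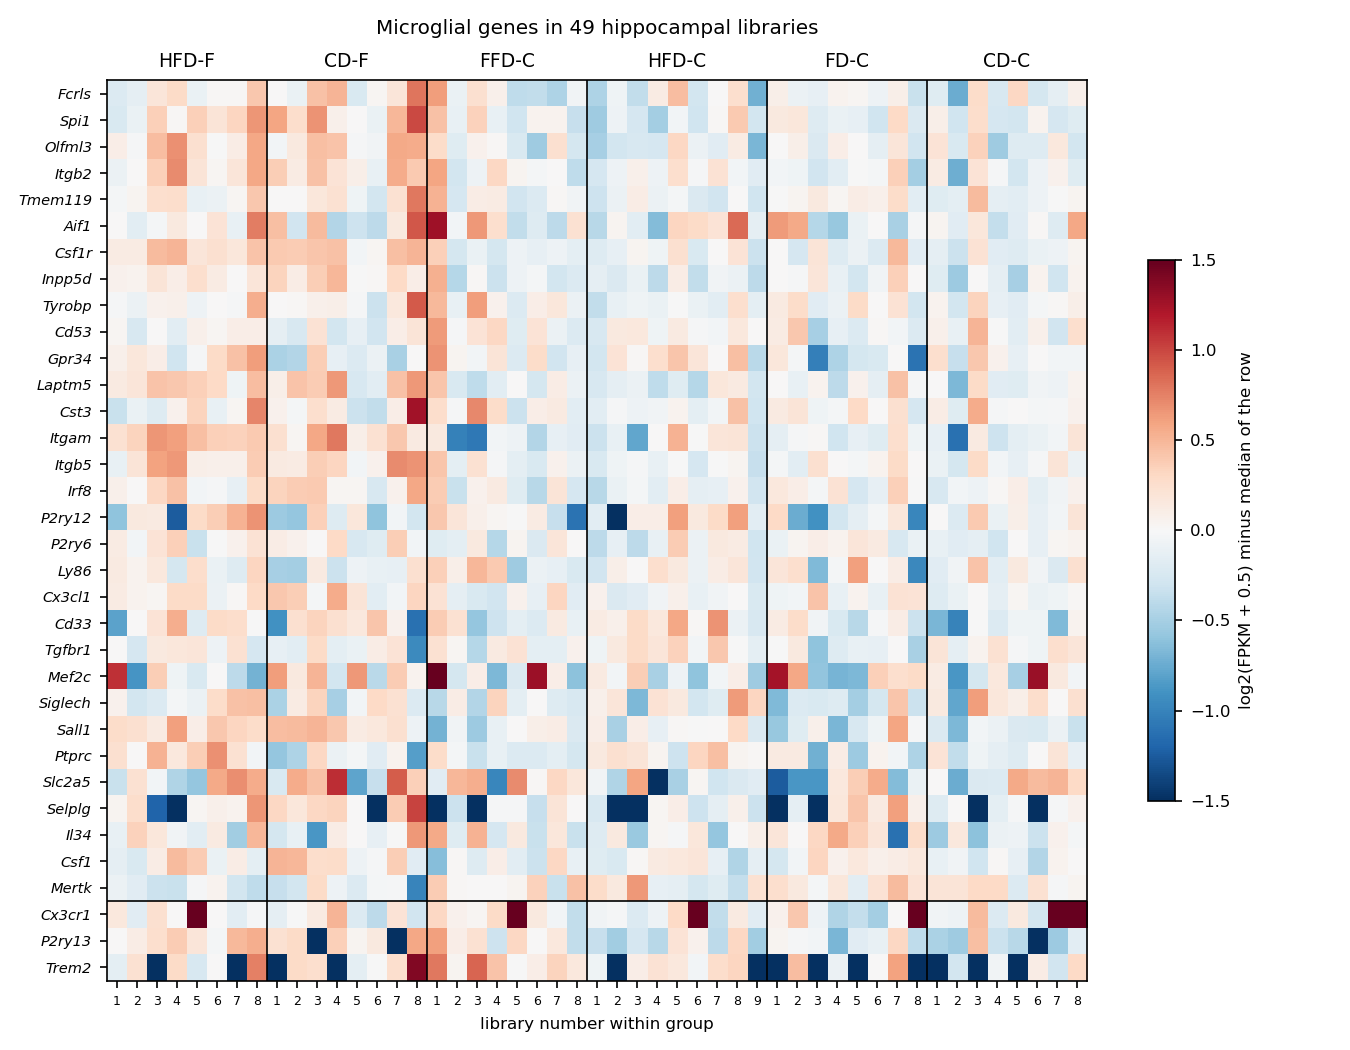
Levels of the 34 genes (rows) in the 49 libraries (columns, numbered within group), as log2(FPKM + 0.5) minus the median of the row, with colour ending at -1.5 and 1.5. Csf1r, Itgam and Sall1 are mostly red in HFD-F and CD-F; the bottom 3 rows, Cx3cr1, P2ry13 and Trem2, hold libraries at a separate level.

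With CD dams, 9 of the 34 genes were higher in CD-F than in CD-C and 0 were lower (limma on log2(FPKM + 0.5), Benjamini-Hochberg adjusted p under 0.05). Over all rows tested, 13.4% were called in this comparison, 4.54% higher and 8.88% lower. The median log2 difference of the 34 genes was 0.186, beside 0.0166 over all rows. The 9 were Csf1r, the fractalkine gene Cx3cl1, the phosphatase gene Inpp5d, the integrin genes Itgam, Itgb2 and Itgb5, the factors Sall1 and Spi1, and Laptm5. With HFD dams, 0 of 34 passed in HFD-F against HFD-C, where 1.67% of all rows did. At an unadjusted p under 0.05, 12 of 34 were higher in HFD-F and 0 lower, beside 16.6% of all rows in either direction, and 29 of 34 differences were positive. The interaction of the offspring code with the maternal code was called for 0 of 34 genes and 0% of rows, and at an unadjusted p under 0.05 for 0 of 34 genes and 441 rows (2.75% of them; limma).

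**Figure D2:**
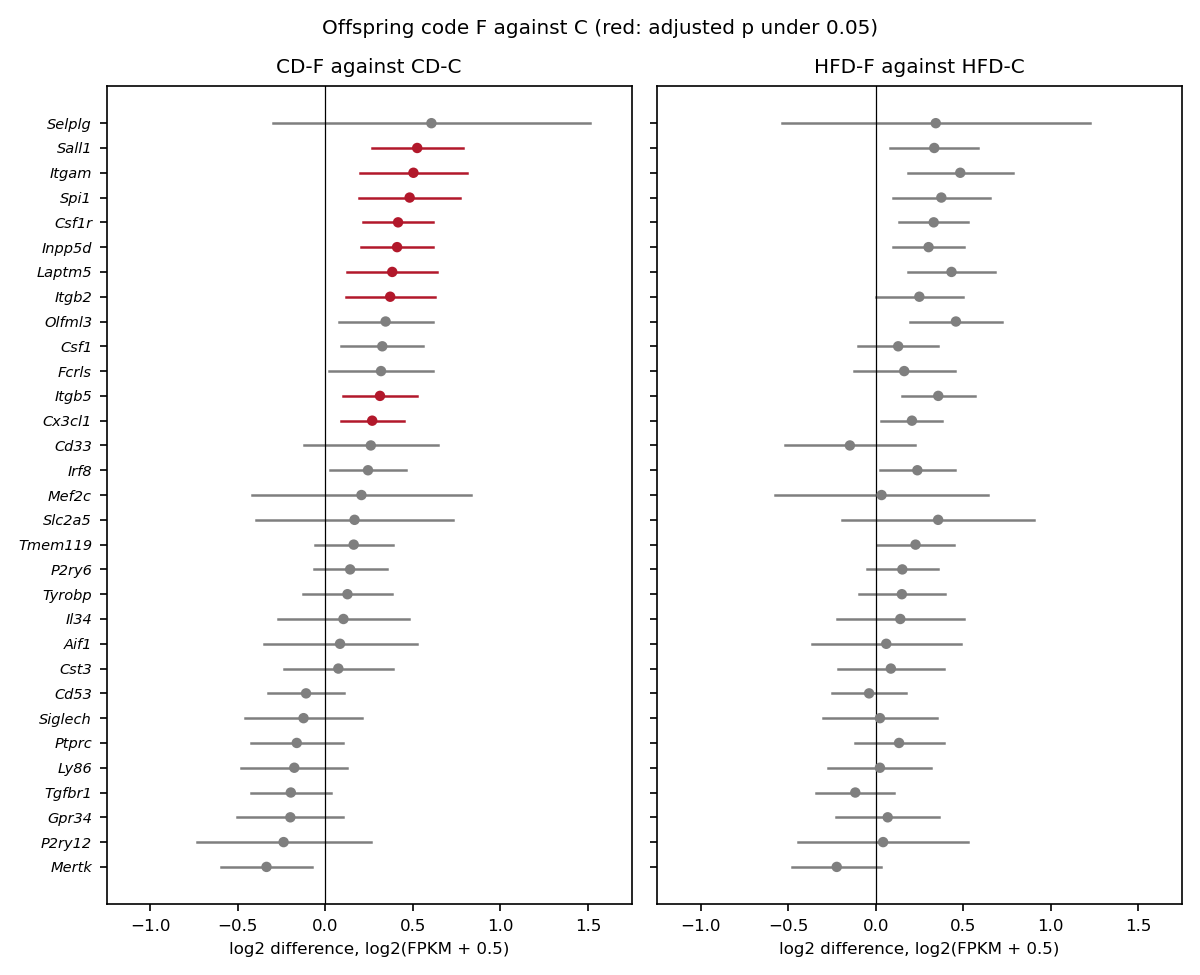
Log2 difference of offspring code F against C in CD dams (left) and HFD dams (right) for the 31 genes with a single level, with 95% confidence intervals. Red points passed the threshold: 9 in CD-F against CD-C, all to the right of 0, and 0 in HFD-F against HFD-C.

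Among the ligands, Cx3cl1 ranged from 58.6 to 76.6 FPKM in HFD-F (median 66.3), 55.8 to 92.0 in CD-F (median 74.6), 53.0 to 65.5 in HFD-C (median 59.8) and 54.3 to 63.7 in CD-C (median 59.0). It was higher in CD-F than in CD-C by 0.27 on the log2 scale (SE 0.0891, limma adjusted p = 0.0375), with 5 of 8 CD-F libraries above the highest CD-C library. In HFD-F against HFD-C the log2 difference was 0.21 (SE 0.0866, adjusted p = 0.212). Csf1 had medians of 28.3 FPKM in HFD-F, 34.04 in CD-F, 25.7 in HFD-C and 26.6 in CD-C, and its log2 difference of 0.32 between CD-F and CD-C did not pass (adjusted p = 0.0546). Il34, a neuronal ligand of the same receptor, differed by 0.10 between CD-F and CD-C and by 0.14 between HFD-F and HFD-C, and passed in neither comparison. Its groups overlapped, with medians of 17.3, 16.03, 16.8 and 15.8 FPKM in HFD-F, CD-F, HFD-C and CD-C.

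Csf1r, the receptor on which microglial survival depends, was the receptor gene that passed. It lay between 898 and 1171 FPKM in HFD-F (median 954), 799 and 1170 in CD-F (median 1092), 684 and 1057 in FFD-C (median 764), 658 and 976 in HFD-C (median 789), 694 and 1159 in FD-C (median 754) and 659 and 959 in CD-C (median 761). In CD-F, 6 of 8 libraries stood above every CD-C library and 8 of 8 above the CD-C mean. The log2 difference of Csf1r was 0.42 (SE 0.0999, limma adjusted p = 0.00388) in CD-F against CD-C. In HFD-F against HFD-C, 8 of 8 libraries stood above the HFD-C mean, and the log2 difference was 0.33 (SE 0.0972, adjusted p = 0.0616). The ADP receptor gene P2ry12, a marker that falls when microglia become reactive, was scattered: 17.2 to 66.7 FPKM in HFD-F, 27.2 to 53.5 in CD-F, 12.3 to 64.1 in HFD-C and 36.0 to 54.5 in CD-C. Its log2 differences were -0.24 (95% interval -0.74 to 0.26) in CD-F against CD-C and 0.04 (-0.44 to 0.53) in HFD-F against HFD-C. Mertk had a negative difference of -0.34 in CD-F against CD-C (adjusted p = 0.0781), with medians of 119 FPKM in CD-F and 150 FPKM in CD-C. P2ry6, the orphan receptor gene Gpr34 and the TGF-beta receptor gene Tgfbr1 passed in neither comparison.

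In the TREM2 and immune receptor group, Inpp5d, which encodes the phosphatase SHIP1 that restrains signalling below TREM2 and CSF1R, was the gene that passed. Its levels were 24.7 to 29.4 FPKM in HFD-F (median 26.5), 24.6 to 34.9 in CD-F (median 28.5), 18.6 to 26.5 in HFD-C (median 22.3) and 16.7 to 25.5 in CD-C (median 21.9). The CD-F libraries were above the CD-C mean in 8 of 8 cases, and the log2 difference of Inpp5d was 0.41 (SE 0.103, limma adjusted p = 0.00549). In HFD-F against HFD-C it was 0.30 (SE 0.1, adjusted p = 0.103). Tyrobp was low, with medians of 0.901 FPKM in HFD-F, 0.955 in CD-F, 0.812 in HFD-C and 0.904 in CD-C, and log2 differences of 0.13 and 0.15 in CD-F against CD-C and HFD-F against HFD-C that did not pass. Siglech, Cd33 and Ptprc, all genes of surface receptors, did not pass either.

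The 3 integrin genes of the adhesion group passed together in CD-F against CD-C. Itgam and Itgb2 encode the chains of the complement receptor CR3 (CD11b and CD18), and ITGB5 is an integrin chain enriched in microglia. Itgam ranged from 54.0 to 72.7 FPKM in HFD-F (median 59.7), 46.7 to 80.1 in CD-F (median 54.2), 21.6 to 50.9 in FFD-C (median 41.4), 26.5 to 66.3 in HFD-C (median 45.7), 37.2 to 54.9 in FD-C (median 43.0) and 20.9 to 52.6 in CD-C (median 42.5). Its difference was 0.50 (SE 0.153, limma adjusted p = 0.0218) in CD-F against CD-C and 0.48 (SE 0.149, adjusted p = 0.0762) in HFD-F against HFD-C. Itgb2 had medians of 8.02 FPKM in CD-F and 6.25 FPKM in CD-C, a log2 difference of 0.37 (adjusted p = 0.042). For Itgb5 the medians were 44.0 FPKM in HFD-F, 46.7 in CD-F, 37.9 in HFD-C and 38.0 in CD-C. In HFD-F, 7 of 8 Itgb5 values were above the highest HFD-C value, with a log2 difference of 0.36 (adjusted p = 0.0582), beside 0.31 (adjusted p = 0.042) in CD-F against CD-C. Selplg, the gene of a selectin ligand, was spread too widely for its difference to be placed (0.61, 95% interval -0.30 to 1.51, in CD-F against CD-C).

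Of the transcription factors, Sall1 and Spi1 passed. Sall1, which keeps microglia in their resting state, lay between 3.70 and 5.51 FPKM in HFD-F (median 4.23), 3.22 and 5.06 in CD-F (median 4.41), 2.303 and 4.32 in HFD-C (median 3.43) and 1.95 and 3.31 in CD-C (median 2.87). In CD-F, 7 of 8 libraries exceeded every CD-C library. The log2 difference of Sall1 was 0.52 (SE 0.129, limma adjusted p = 0.00463) in CD-F against CD-C, and 0.33 (SE 0.125, adjusted p = 0.154) in HFD-F against HFD-C. Spi1 had medians of 3.41 FPKM in HFD-F, 3.76 in CD-F, 2.23 in HFD-C and 2.31 in CD-C, with a log2 difference of 0.48 (adjusted p = 0.0184) in CD-F against CD-C. Irf8, the partner of PU.1, differed by 0.24 in both comparisons without passing. Mef2c, which neurons also express, ranged widely, from 31.7 to 225 FPKM over all libraries.

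**Figure D3:**
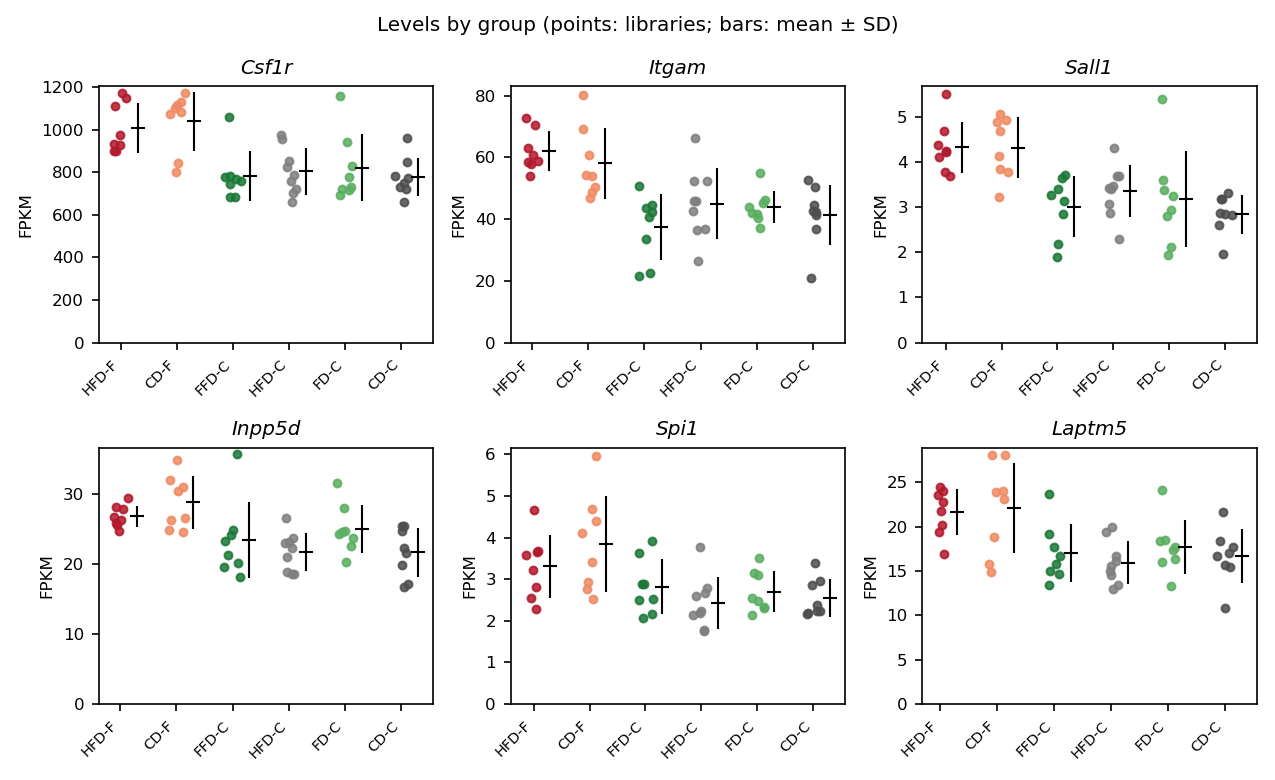
FPKM of Csf1r, Itgam, Sall1, Inpp5d, Spi1 and Laptm5 in each library by group, with the group mean and SD beside the points. Group medians of all 6 genes are higher in HFD-F than in HFD-C and higher in CD-F than in CD-C, with overlapping points.

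Of the 9 further markers, Laptm5 passed. This gene of a lysosomal membrane protein ranged from 16.9 to 24.5 FPKM in HFD-F (median 22.3), 14.9 to 28.1 in CD-F (median 23.6), 12.99 to 19.9 in HFD-C (median 15.6) and 10.9 to 21.7 in CD-C (median 16.9). In HFD-F, 6 of 8 values were above every HFD-C value. The log2 differences of Laptm5 were 0.38 (SE 0.127, limma adjusted p = 0.0373) in CD-F against CD-C and 0.43 (SE 0.124, adjusted p = 0.0565) in HFD-F against HFD-C. Tmem119, a marker that sets microglia apart from blood-derived macrophages, had medians of 5.26 FPKM in HFD-F, 5.50 in CD-F, 4.76 in HFD-C and 4.72 in CD-C. Its log2 differences of 0.16 and 0.23 in CD-F against CD-C and HFD-F against HFD-C did not pass. Aif1, the gene of the microglial stain IBA1, differed by 0.08 (95% interval -0.35 to 0.52) in CD-F against CD-C and by 0.06 (-0.37 to 0.49) in HFD-F against HFD-C. Olfml3 had medians of 14.5 FPKM in HFD-F, 15.8 in CD-F, 10.7 in HFD-C and 11.1 in CD-C, and its log2 difference of 0.46 in HFD-F against HFD-C had an adjusted p of 0.0544. Fcrls, Cst3, Cd53, Ly86 and the fructose transporter gene Slc2a5 did not pass.

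Genes of other tissue were read beside these results. All 5 liver genes looked at, Alb among them, were lower in CD-F than in CD-C: they summed to 0 to 0.945 FPKM in CD-F, against 0 to 155 FPKM in CD-C, where 4 libraries (2, 5, 7 and 8) held 86.4 FPKM or more. The highest liver sum was 0.140 FPKM in HFD-C, 0.139 in FD-C, 0.0764 in FFD-C and 0 in HFD-F. Between HFD-F and HFD-C the median log2 difference of the 5 liver genes was -0.0247. Without the 4 CD-C libraries named, 0 of 34 genes passed in CD-F against CD-C, where 4 CD-C libraries were left. The log2 difference of Csf1r was then 0.38 (adjusted p = 0.0554), that of Sall1 0.46 (adjusted p = 0.0612) and that of Itgb2 0.17 (adjusted p = 0.53). After removal of each library's trend with GC content, 2 genes passed, Csf1r at 0.29 (adjusted p = 0.0432) and Sall1 at 0.45 (adjusted p = 0.0208). Leaving out CD-C library 2 or CD-F library 4 left 4 genes called, and leaving out CD-F library 8 left 5. Border macrophage markers, led by Cbr2 and Mrc1, summed to 5.34 to 43.2 FPKM in CD-F (median 11.7), against 8.11 to 29.8 FPKM in CD-C (median 17.2). They summed to 6.49 to 30.9 FPKM in HFD-F (median 15.8), against 3.82 to 22.3 FPKM in HFD-C (median 8.02). Of 4 tested, 0 passed in either pair. Their median log2 difference was -0.123 in CD-F against CD-C and 0.588 in HFD-F against HFD-C. Cbr2, Pf4, Ms4a7 and Siglec1 were at 0 in some libraries. Choroid plexus genes summed to 213 to 24285 FPKM in CD-F (median 3216), against 284 to 17440 FPKM in CD-C (median 1153). They summed to 136 to 13457 FPKM in HFD-F (median 1609), against 288 to 6021 FPKM in HFD-C (median 407). Of 8 tested, 0 passed in either pair. Their median log2 difference was 0.336 in CD-F against CD-C and 0.649 in HFD-F against HFD-C. The part of border macrophage and choroid plexus RNA in the result was not tested.

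The 9 genes were also positive in HFD-F against HFD-C, which shares no library with CD-F against CD-C, with log2 differences from 0.21 (Cx3cl1) to 0.48 (Itgam). That share was also found outside these genes: of the 728 rows called higher in CD-F, 704 (96.7%) were positive in HFD-F against HFD-C, beside 50.1% of all rows. In a fit with the title prefix as a fixed term, the HFD-F differences of these 9 genes were positive and smaller. The labels do not say what a prefix marks. Mice of both HFD-F and HFD-C are held by 3 prefixes, with 3 HFD-C libraries among them. In each of these prefixes the HFD-C library carried the opposite XX or XY mark to every HFD-F library. Mark and offspring code therefore cannot be told apart within a prefix, and the fit separates them only by taking the same mark effect in all prefixes. This fit of both groups, with prefix and mark as terms, was added after the data had been seen. In it Csf1r differed by 0.12 (SE 0.107, limma adjusted p = 0.912), Itgam by 0.19 (SE 0.146, adjusted p = 0.904) and Spi1 by 0.02 (SE 0.146, adjusted p = 0.994). The median of the 34 genes was then 0.062, with 19 positive, and 0 passed at an unadjusted p under 0.05. CD-F and CD-C share no prefix, so that prefix and offspring code cannot be told apart there. Averaged over both maternal codes, a comparison added after the separate ones had been seen, 12 of 34 genes were higher with offspring code F and 1 was lower, where 21.7% of all rows were called, 8.82% higher and 12.9% lower. The 12 were the 9 named above with Csf1 (0.23, limma adjusted p = 0.0386), Olfml3 (0.40, adjusted p = 0.00141) and Irf8 (0.24, adjusted p = 0.0181). The lower one was Mertk (-0.28, adjusted p = 0.0216). Csf1r had the smallest adjusted p (0.37, SE 0.0697, adjusted p = 0.000127). Leaving out 1 library at a time gave 12 to 15 genes, removing the GC trend 10, and leaving out the 4 CD-C libraries with Alb 12. With the GC trend removed, Cx3cl1 (0.11, adjusted p = 0.168), Csf1 (0.12, adjusted p = 0.294), Itgb2 (0.22, adjusted p = 0.0815) and Irf8 (0.17, adjusted p = 0.116) no longer passed. Itgb2 also did not pass without the libraries with Alb (0.21, adjusted p = 0.114). Of 8 endothelial genes, 5 were higher in the same averaged comparison, among them Cdh5 (0.44) and Flt1 (0.37). Their sums were 277 to 391 FPKM in HFD-F, 238 to 434 in CD-F, 246 to 397 in HFD-C and 277 to 396 in CD-C. The part of endothelial RNA was not tested.

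Other genes of these cells were read from lists that hold none of the 34. In CD-F against CD-C, 4.54% of all rows were called higher. Of a list of other microglial genes, 20 of 25 were tested, and 3 were higher and 0 lower, with a median of 0.185. The 3 were the lysosomal gene Cd68 (0.54), the ATP-gated channel gene P2rx7 (0.53) and the protease gene Lgmn (0.28). The list was not confined to genes of the resting state of microglia. In HFD-F against HFD-C, 0 of 20 passed, with a median of 0.18. Of 12 genes of TGF-beta signalling, which microglia need for their identity, only Tgfb1 was called in these comparisons. It was higher in both CD-F against CD-C (0.37, limma adjusted p = 0.0308) and HFD-F against HFD-C (0.42, adjusted p = 0.0462). The medians of the 12 genes were 0.108 and -0.00353. In HFD-F against HFD-C, 0.362% of all rows were called higher. Alternative settings were read for the 34 genes and not for these lists. Of 12 genes known from disease-associated microglia, Cst7, Itgax and Clec7a were below the filter, with means of 0.0264 to 0.06 FPKM. Of the 9 tested, Ctsb, a cathepsin gene, was higher in CD-F (0.22). Of 13 kinase pathway genes below CSF1R and TREM2, 0 passed in either comparison. Averaged over both maternal codes, 8.82% of all rows were called higher and 12.9% lower. There 9 of the 20 other microglial genes were higher and 1, Hpgds, was lower. Of the TGF-beta genes, Tgfb1 (0.39) and Tgfbr2 (0.38) were higher in that average, and of the kinase pathway genes Ptpn6 (0.26) and Mapk3 (0.23). Of the 9 disease-associated genes, 4 were higher in that average, namely Ctsb (0.18), Axl (0.25), Ctsd (0.26) and Apoe (0.20).

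The maternal codes were compared at offspring code C. By limma, 0 of the 34 were called in HFD-C against CD-C (0% of all rows called), 0 in FD-C against CD-C (0.2%), 0 in FFD-C against CD-C (0.00624%) and 0 in FFD-C against HFD-C (0%). At an unadjusted p under 0.05 these comparisons gave 1, 3, 1 and 1 of the 34 genes, beside 2.36%, 9.54%, 3.29% and 5.96% of all rows. The log2 difference of Csf1r was 0.04 (95% interval -0.15 to 0.24) in HFD-C against CD-C and -0.04 (-0.23 to 0.16) in FFD-C against HFD-C. In HFD-F against CD-F, 0 of 34 passed (0% of rows), while 3 were below an unadjusted p of 0.05, beside 8.27% of all rows. Among them was Ptprc, at 0.825 to 1.68 FPKM in HFD-F (median 1.1004) and 0.267 to 1.18 FPKM in CD-F (median 0.748). Its log2 difference was 0.49 (SE 0.13, limma adjusted p = 0.482). Ptprc did pass the test for any difference among the 6 groups (adjusted p = 0.0244), which called 9 of 34 genes and 12% of rows.

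HFD-F differs from CD-C in both codes. Here 3 of 34 genes were higher and 0 lower, with 2.7% of all rows called, 0.599% higher and 2.1% lower: Csf1r (0.37, limma adjusted p = 0.03), Sall1 (0.53, adjusted p = 0.016) and Itgam (0.61, adjusted p = 0.0185). For Sall1 and Itgam the groups did not overlap, with HFD-F above CD-C, which held for 0.143% of all rows (1.1% did not overlap in either direction). This comparison shares its CD-C libraries with CD-F against CD-C, and without the 4 CD-C libraries with Alb 0 genes passed. Without CD-C library 2, 1 passed. Between XX and XY libraries 0 of 34 passed (0.112% of rows), and at an unadjusted p under 0.05 there were 6, all higher in XX, beside 8.25% of all rows.

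Cx3cr1, P2ry13 and Trem2 took separate levels, with no library between them. The rule was a step of at least 1 on the log2(FPKM + 0.5) scale between neighbouring libraries, with at least 3 libraries on each side. Of all tested rows, 3.21% have such a step. Cx3cr1 stood at 32.4 to 66.5 FPKM in 43 libraries and at 215 to 602 FPKM in 6. The high ones were HFD-F 5 (602 FPKM), FFD-C 5 (476 FPKM), HFD-C 6 (215 FPKM), FD-C 8 (439 FPKM), CD-C 7 (403 FPKM) and CD-C 8 (424 FPKM). CD-F held 0 of the 6. In those 6 libraries P2ry12 was 20.9 to 51.0 FPKM, Csf1r 701 to 932 FPKM and Tmem119 4.11 to 5.28 FPKM. Tmem119 was the lowest of its group in HFD-F 5 (4.71 FPKM), FFD-C 5 (4.11 FPKM) and FD-C 8 (4.55 FPKM), and P2ry12 was the lowest of its group in FD-C 8 (20.9 FPKM). Of 31 other genes, those above their own median numbered 19 in HFD-F 5, 8 in FFD-C 5, 8 in HFD-C 6, 6 in FD-C 8, 11 in CD-C 7 and 21 in CD-C 8. The interval of the Cx3cr1 difference was wide, with values of -0.81 (95% interval -1.91 to 0.29) in CD-F against CD-C and 0.27 (-0.80 to 1.34) in HFD-F against HFD-C.

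P2ry13, the neighbour of P2ry12 on chromosome 3 and likewise an ADP receptor gene, stood at 10.4 to 26.4 FPKM in 46 libraries and at 0.120 to 0.140 FPKM in 3, which were CD-F 3, CD-F 7 and CD-C 6. P2ry12 was 53.5, 40.4 and 38.2 FPKM in those 3 libraries. Trem2 was listed at 0 in 13 libraries and lay between 2.57 and 9.37 FPKM in 36, with 2 of 8 at 0 in HFD-F, 2 of 8 in CD-F, 0 of 8 in FFD-C, 2 of 9 in HFD-C, 4 of 8 in FD-C and 3 of 8 in CD-C. The table has a further Trem2 row, which was never at 0 and ranged from 1.47 to 5.36 FPKM. In the 36 libraries where both rows were above 0, the ratio of the row used to the further row was 1.28 to 1.85, with a median of 1.70. In the 13 libraries where the row used was at 0, the further row was above 0. The further row differed by 0.28 in CD-F against CD-C and 0.13 in HFD-F against HFD-C, and passed in neither.

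**Figure D4:**
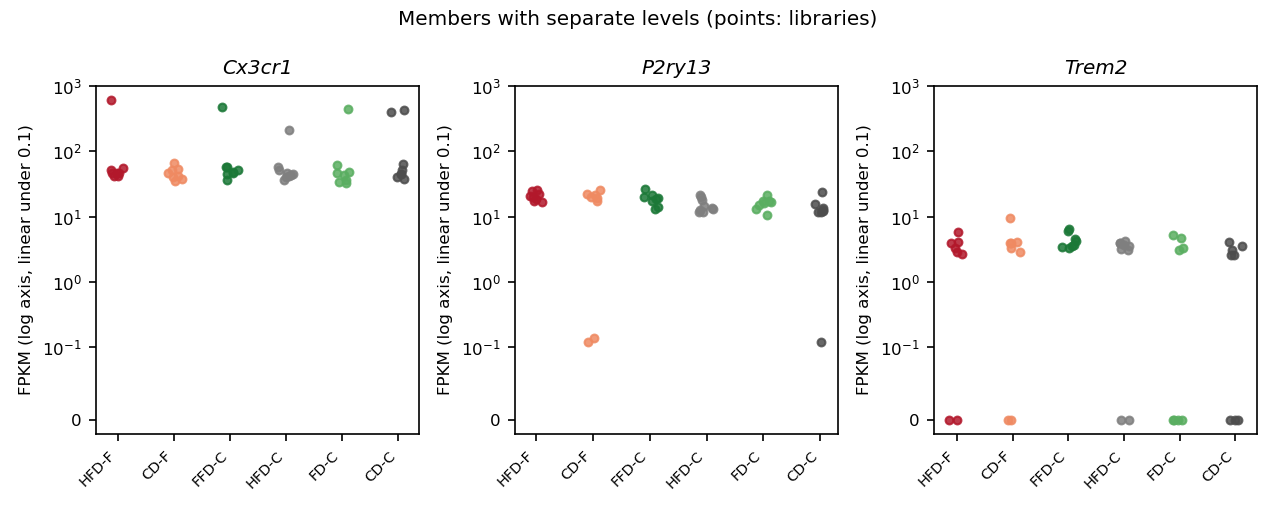
FPKM of Cx3cr1, P2ry13 and Trem2 in each library by group, on a log axis that is linear under 0.1. Cx3cr1 has 6 libraries above the rest, P2ry13 has 3 below the rest, and Trem2 has 13 listed at 0.

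Agreement between libraries was read for the 31 genes with a single level, after subtracting group means from log2(FPKM + 0.5). Over 465 pairs the median Pearson r was 0.167, beside -0.00741 for the same genes with all other rows, and 337 pairs were positive. By permutation within groups (100000 draws, two-sided, Benjamini-Hochberg over the 465 pairs) 135 pairs passed for Pearson's r, 124 of them positive and 11 negative, and 133 for Spearman's rho. The libraries are the same for every pair and FPKM shares a column total within a library. The highest pair was Tyrobp with Cst3 (r = 0.88, rho = 0.77), followed by Tmem119 with Tyrobp (r = 0.81, rho = 0.73) and Csf1r with Laptm5 (r = 0.79, rho = 0.79). Each had a permutation p of 1e-05 for both measures, the smallest these draws can give (adjusted p = 0.000141 for r and 0.000172 for rho). Without the 2 libraries farthest from the median of the first gene, r was 0.81, 0.73 and 0.74 for these pairs. The share of pairs passing among other rows was not tested. Among the 31, r was above 0.5 with 13 genes for Tyrobp, 12 for Tmem119, 11 for Csf1r, and 9 each for Cst3 and Laptm5. Of all rows, r was above 0.5 with 10.7% for Tyrobp, 7.22% for Tmem119, 2.35% for Csf1r, 12.1% for Cst3 and 1.32% for Laptm5. High r of these genes was therefore not confined to the set.

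Fcrls, Spi1, Olfml3 and Itgb2 had the highest median r with the other genes, from 0.37 to 0.44. P2ry12 agreed less, with a median r of 0.17 and 1 gene above 0.5, which was Gpr34 (r = 0.56). Sall1 had a median r of 0.06 although it passed the test in CD-F against CD-C. Below 0 stood the ligand genes Csf1 (-0.11) and Il34 (-0.11), the receptor gene Mertk (-0.11) and Selplg (-0.03). Selplg came close to separate levels, with 11 libraries below the other 38 and a step of 0.86, so its r can reflect that split. The lowest pair was Il34 with Sall1 (r = -0.62, permutation p = 0.00005, adjusted 0.000447; rho = -0.45, permutation p = 0.00231, adjusted 0.0111), with r = -0.50 without the 2 farthest libraries. Of all tested rows, those most like Csf1r by rho over the 49 libraries included Acsbg1 (0.84), Cmtm6 (0.81), Vsir (0.80) and Laptm5 (0.79). Those most like P2ry12 were led by Gpr34 (0.63) and Adhfe1 (0.62). For Cx3cr1 the first was Jarid2 (0.51), and none of its 5 nearest rows was among the 34 genes. The third, Dock2 (0.49), is on the list of other microglial genes. These ranks used group-centred values. The libraries with high Cx3cr1 raise the group means subtracted, and CD-F held none of them, so the Cx3cr1 ranks partly follow the group. The nearest rows of Cx3cr1 carry that limit.

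**Figure D5:**
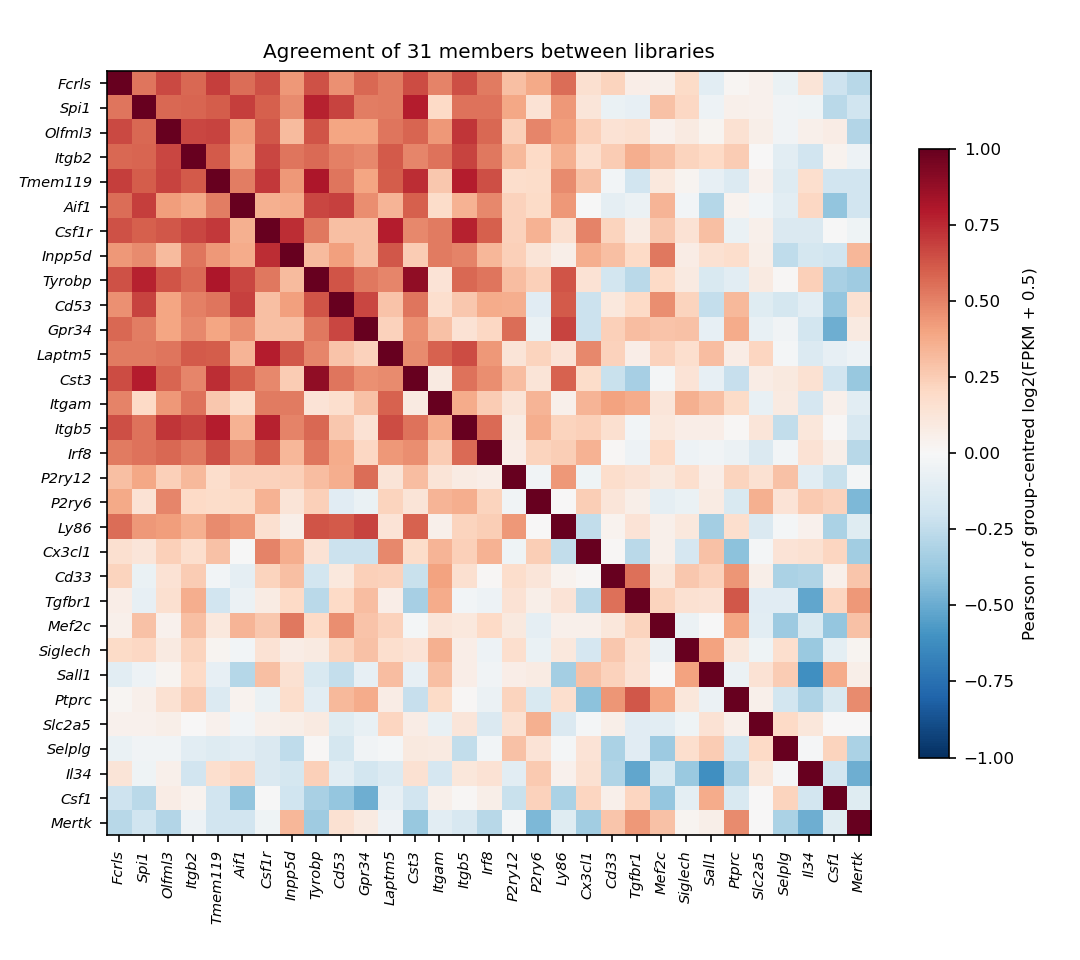
Pearson r between libraries for the 31 genes with a single level, on group-centred log2(FPKM + 0.5), ordered by each gene's median r. A red block from Fcrls to Irf8 holds most of the high values; Il34, Csf1 and Mertk at the lower end are mostly blue or near 0.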

How the data were processed

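The authors deposited 1 table of FPKM per gene row, with a column for each of the 49 libraries. RNA was extracted with phenol-chloroform and sequenced by BGI-500 protocols, per the labels. Trimmomatic 0.38, HISAT2, StringTie 1.3.4d and the build GRCm38.p6 appear, without settings, in the submitters' processing notes. The annotation is not given in the sources used here, nor is the strand setting. All 34 rows used carry identifiers of the assembled kind; the Ly86 row also names Gm40913, and 5 genes stand on several rows, so their reads can be split.

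Differences were tested with limma 3.58.1 (R 4.3.3, eBayes with trend) on log2(FPKM + 0.5) over the 16029 rows whose mean reached 0.5 FPKM. The model took in all 49 libraries, with group and the XX or XY mark as terms. P-values were two-sided and adjusted by Benjamini-Hochberg over all rows, with a threshold of 0.05. The log2 differences understate the change of low genes. Group values are medians and ranges, and no 2 libraries held identical values. Correlations and figures used Python 3.11.15.

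The members and the other gene lists were chosen with earlier results of these data known. Genes given in full were those past the threshold in a comparison, those with separate levels, and a panel of 10: Cx3cr1, Cx3cl1, P2ry12, Tmem119, Csf1r, Csf1, Il34, Trem2, Tyrobp and Aif1. Lists were described by counts and medians. They covered other microglial genes, TGF-beta signal, kinase signal, disease-associated microglia, border macrophage, blood, neuron, astrocyte, oligodendrocyte, endothelial, choroid plexus and liver. Alternatives changed the pseudocount, the filter, the normalization, GC trend, rows summed per symbol, the mark, the 20 title prefixes as a block (random, and fixed for HFD-F against HFD-C), the samples fitted and each library. Replicates are separate mice by the series' design text. Absolute depth is unknown, so counting error is not given. A gene of the marker and nearest-row lists is not reported here.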

Additional observations from a re-analysis of the deposited data

Results flagged for a closer look

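Highest or lowest libraries were set against the rest of their group for the 20 genes given in full. In 15 of 120 gene and group sets (12.5%), 1 library stood farther from its neighbour than Dixon's 95% critical value allows. Over all 34 genes this was so in 22 of 204 sets (10.8%), and over all 16029 tested rows in 12.7% of sets, beside the nominal 1 in 20, so that these genes were near the background. The 20 include Cx3cr1, P2ry13 and Trem2, whose levels fall apart. Cx3cr1 gave 4 of these, with 601.8 FPKM in HFD-F 5 (next 54.88), 476.5 FPKM in FFD-C 5 (next 57.89), 215.2 FPKM in HFD-C 6 (next 57.08) and 439.1 FPKM in FD-C 8 (next 61.32). In CD-C, 2 libraries were high together, so neither stood alone.

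Library CD-F 8 was highest in its group for Tmem119 (9.255 FPKM), Trem2 (9.366 FPKM) and Tyrobp (2.157 FPKM). Library FFD-C 1 was highest in its group for Tmem119 (7.597 FPKM), Csf1r (1057 FPKM), Ptprc (1.143 FPKM) and Inpp5d (35.71 FPKM). Library HFD-F 8 was highest in its group for Tyrobp (1.558 FPKM) and Aif1 (3.28 FPKM). Tmem119 stood at 7.299 FPKM in CD-C 3. Il34 was lowest in its group in FD-C 7, at 7.419 FPKM (next 16.76).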

How the results depend on the processing

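In CD-F against CD-C, where 9 of the 34 genes passed, 5 passed with no filter on the mean, 4 with only those groups in the model, 2 with the GC trend removed and 0 without the 4 CD-C libraries with Alb; leaving out 1 library at a time gave 4 to 12. In HFD-F against HFD-C the count of 0 became 1 at a mean of at least 1 FPKM, 1 after quantile normalization, 2 with rows of a symbol summed and 2 with only those groups in the model, and 0 to 4 with 1 library left out. Laptm5 was among those passing with rows summed (adjusted p = 0.0357). In HFD-F against CD-C the 3 calls became 0 without the libraries with Alb and 1 to 3 with 1 library left out. The test over the 6 groups called 4 genes with the GC trend removed, and 7 to 12 with 1 library left out. The averaged offspring comparison gave 12 to 15 with 1 library left out; Csf1 lost its call in 14 of these 33 fits and with the GC trend removed or no filter on the mean. Counts for the other comparisons were 0 with every single library left out. The fit without the libraries with Alb also holds fewer CD-C libraries, and the cause of these shifts was not tested. For genes called in CD-F against CD-C, in HFD-F against CD-C or in the average, no difference reversed there in the settings run. The 9 genes called in CD-F against CD-C also kept their sign in HFD-F against HFD-C. Signs of the other genes were not followed one by one. In HFD-F against HFD-C, 29 of the 34 differences were positive in the main fit and 19 with the prefix as a fixed term. With the title prefix as a random block (correlation 0.0356), 7 genes passed in CD-F against CD-C, 2 in HFD-F against CD-C and 0 in HFD-F against HFD-C; with the prefix as a fixed term, 0 passed in HFD-F against HFD-C, where 1 row in all was called. The median r was 0.161 to 0.197 over the alternatives with all 31 genes, and 0.205 over the 435 pairs left with the GC trend removed. Cx3cr1, P2ry13 and Trem2 kept separate levels at a step of at least 1.5 and at a pseudocount of 0.1. GC and quantile settings moved the median of all rows by less than 0.1. No paired analysis was possible by replicate number, because the numbers used here follow accession order and pair no mice. Unknown depth limits what can be said of low rows such as P2ry6, Ptprc and Tyrobp.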

Other observations

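Other rows of the same symbols, which the row choice left out, gave these values. The further Laptm5 row, at 3.95 to 28.9 FPKM, differed by 0.62 (SE 0.334, limma adjusted p = 0.226) in CD-F against CD-C and by 0.76 (SE 0.325, adjusted p = 0.224) in HFD-F against HFD-C. The further Slc2a5 row differed by 0.51 and 0.55 in the same comparisons (adjusted p = 0.141 and 0.191), beside 0.17 in CD-F against CD-C for the row used. The further Olfml3 row was at 0 in 24 libraries.

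Selplg came close to separate levels, with 38 libraries at 15.1 to 39.6 FPKM and 11 at 2.91 to 8.12 FPKM, a step of 0.86 on the log2(FPKM + 0.5) scale. Mef2c had 5 libraries at 127 to 225 FPKM and 44 at 31.7 to 92.9 FPKM.

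Of the lists for other cells, neuron genes had 0 of 8 called in CD-F against CD-C, oligodendrocyte genes 0 of 8 and blood genes 0 of 5. Among the blood genes, Hbb-bs and Hbb-bt share a row, as do Hba-a1 and Hba-a2, so the 5 are not separate measurements. Astrocyte genes had 1 of 8 called higher, Aldh1l1 (0.33). Endothelial genes had 1 of 8 called higher, Cdh5 (0.44).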
